A study of Mus musculus with 6 samples.

Results

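The 10 genes described here handle cholesterol that a cell already holds. *Abca1* and *Abcg1* encode pumps that export it, and *Apoe* the lipoprotein component that carries it. *Npc1* encodes the protein that moves it out of late endosomes and lysosomes, *Soat1* and *Soat2* the enzymes that esterify it for storage, *Ch25h* and *Cyp27a1* hydroxylases that turn it into oxysterols, and *Nr1h3* and *Nr1h2* the nuclear receptors LXRα and LXRβ, which bind oxysterols. They were chosen by name from the symbol column of the deposited gene table, where each matched 1 of 59485 rows. All 10 were among the 25802 genes tested, which had a mean normalised read count of at least 10 in at least 1 genotype, and each of the 10 had such a mean in both genotypes.

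RNA-seq was performed on whole sciatic nerves at P4 from 3 control animals, whose genotype is given as wild-type, and from 3 mutants of the genotype Ht-PA-Cre; Adar1fl/fl;R26R, with 1 library per animal. Both floxed *Adar1* alleles are removed where the Ht-PA-Cre transgene acts, in NC cells and their descendants, and R26R is a YFP reporter of these cells. SCs are NC derivatives, whereas vessels, blood and macrophages of the nerve are not. Values are normalised read counts, that is counts divided by a size factor per library. A gene is called past the threshold where limma's moderated test on log2(value + 1) gave an unadjusted p of 0.05 or less and the change reached 2-fold.

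The libraries had between 50938349 and 78250094 reads on genes. The targeted gene *Adar* was higher in mutant-labelled libraries, at 1602, 2066 and 1133 in the control-labelled replicates (given in the order 1, 2 and 3 here and throughout) against 11768, 9311 and 9773 in the mutant-labelled replicates (log2 fold change 2.72, standard error 0.20, adjusted p = 4.1e-05 by limma). This runs opposite to the labelled deletion, and since the table has 1 value per gene, the deleted segment could not be looked at on its own. The groups are therefore called by their labels. *Xist* exceeded the sum of 4 Y-linked genes in 2 control-labelled libraries and 1 mutant-labelled library. Among the 6 SC markers examined, none was at 0, 4 were lower past the threshold and none higher. Of all tested genes, 10.4% were lower and 13.9% higher. *Sox10*, a SC transcription factor, had values from 10919.5 to 12618 in control-labelled nerves and from 5838 to 9171 in mutant-labelled nerves.

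As background, cholesterol is a major lipid of myelin, and SCs make most of their own supply. Cholesterol taken up with lipoproteins leaves lysosomes through NPC1 and NPC2. What exceeds the needs of membranes is esterified by the SOAT enzymes, passed to apolipoproteins by ABC transporters, or hydroxylated. Oxysterols activate LXR, which pairs with a retinoid X receptor and raises the transcription of efflux genes such as *Abca1*, *Abcg1* and *Apoe*, while 25-hydroxycholesterol, the product of CH25H, also restrains the SREBP factors that drive sterol synthesis. *Ch25h* is known as an interferon-stimulated gene of macrophages.

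Of the 10 genes, 5 were past the threshold and higher in mutant-labelled libraries (*Soat2*, *Ch25h*, *Nr1h3*, *Abca1* and *Soat1*), against 13.9% of all tested genes, and 2 were past it and lower (*Npc1* and *Apoe*), against 10.4%. The adjusted p of these 7 genes was also 0.05 or less, which with the same fold limit held for 11.5% of all tested genes in the higher and for 8.46% in the lower direction. In 5 genes every mutant-labelled value lay above every control-labelled value, as in 25.9% of tested genes. In 4 genes, *Npc1*, *Apoe*, *Nr1h2* and *Cyp27a1*, every mutant-labelled value lay below, as in 23.3%. Only *Abcg1* overlapped between the genotypes. The median log2 fold change of the 10 genes was 0.56, beside 0.03 for all tested genes, and single values ran from -1.79 to 6.54. In whole nerve, fewer cells of a type and less RNA per cell cannot be told apart.

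**Figure D1:**
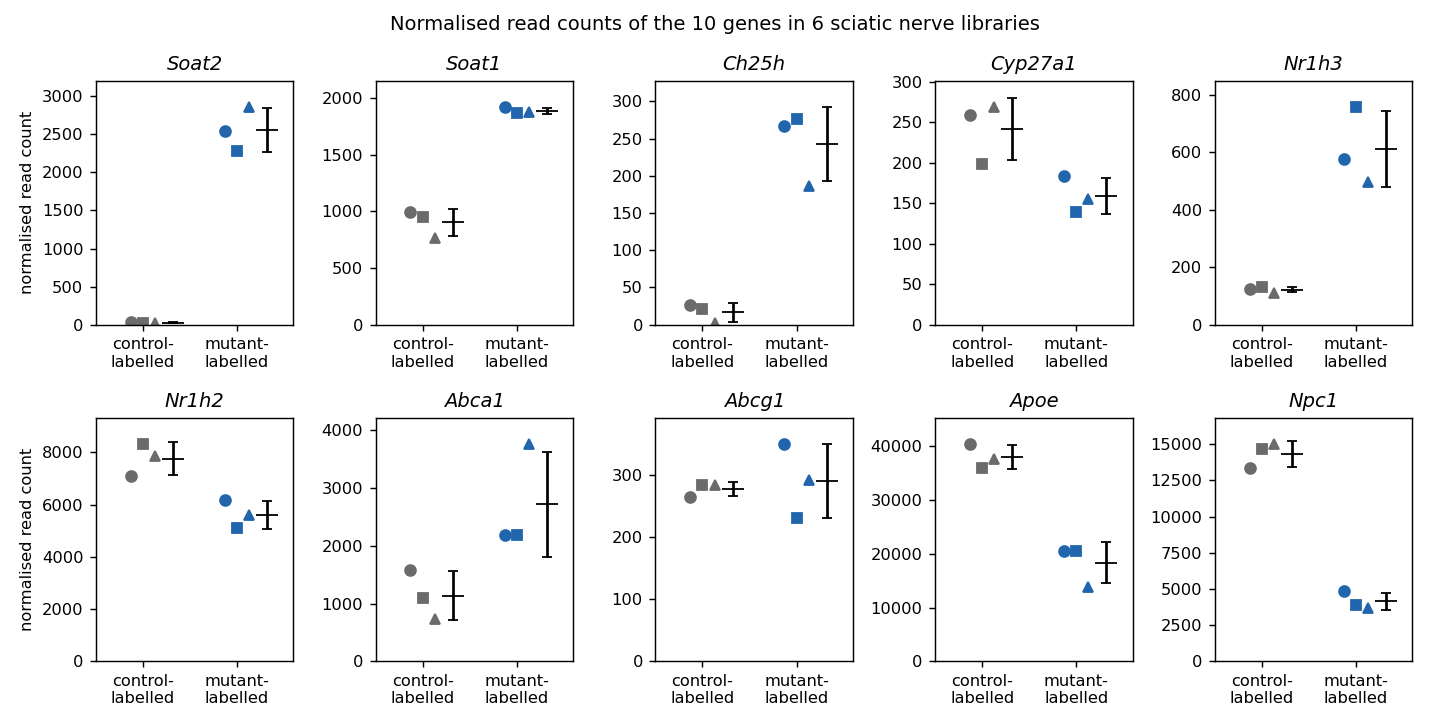
Normalised read count (vertical axis, linear, starting at 0) of each gene in 3 control-labelled (gray) and 3 mutant-labelled (blue) libraries. Circles, squares and triangles are replicates 1, 2 and 3, and the black bar gives the mean ± SD (n = 3). *Soat2* went from 26.6 to 2557 on average, *Npc1* from 14334 to 4159, and only the *Abcg1* values overlap.

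**Figure D2:**
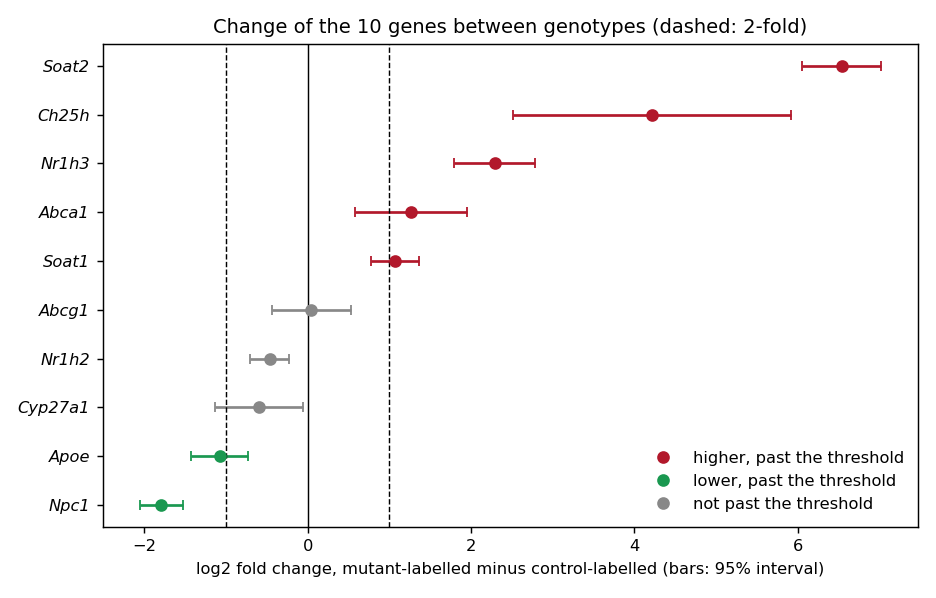
Log2 fold change of each gene, mutant-labelled minus control-labelled (horizontal axis), with its 95% interval from limma's fit, and dashed lines at a 2-fold change in each direction. Red points are past the threshold and higher, green points past it and lower, and gray points not past it. *Soat2* stands at 6.54 and *Npc1* at -1.79, and the interval of *Abcg1* spans 0.

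The esterification enzymes were both higher, to very different extents. *Soat2* (GSMG0013683, mm10 chromosome 15, 102150575 to 102163458, plus strand), which in the adult is known mainly from liver and intestine, was at 32.2, 23.6 and 24.1 in the control-labelled nerves and at 2538, 2277 and 2857 in the mutant-labelled nerves. The groups were far apart and each was narrow: 19 to 29 reads in a control-labelled library stood against 2360 to 3489 in a mutant-labelled one. The mutant-labelled mean was 96.0 times the control-labelled mean, or 6.54 higher on the log2 scale (standard error 0.21, adjusted p = 1.35e-06 by limma), which ranked 80 by size among the 3580 raised genes. Liver and intestine markers were low. The 6 examined summed to between 53.2 and 127 in control-labelled nerves and between 75.2 and 153 in mutant-labelled nerves, with *Fabp1* at 0 throughout. *Vil1* was past the threshold and higher (log2 fold change 2.50, adjusted p = 0.106 by limma). *Alb*, *Apoa2* and *Ttr* had log2 fold changes of 1.06, 1.61 and 0.38 and *Apob* one of -2.08, none past the threshold. The part of such cells in the *Soat2* value was not tested.

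*Soat1* (GSMG0002271, chromosome 1, 156428108 to 156474328, minus strand), the form found in most tissues, had values of 990.5, 951 and 767 in control-labelled nerves and 1918, 1868 and 1871 in mutant-labelled nerves. The 3 mutant-labelled values were nearly alike (1886 ± 28.1, SD, n = 3), and the lowest control was replicate 3. The log2 change was 1.07 (standard error 0.13, adjusted p = 0.000441 by limma), close to the 2-fold limit. Without control-labelled replicate 3 it was 0.96, under the limit.

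Within each library, the log2 ratio of *Soat2* to *Soat1* was -5.04 ± 0.21 in control-labelled nerves and 0.43 ± 0.16 in mutant-labelled nerves (SD, n = 3). Reads were not divided by gene length, so the ratio in 1 genotype is no ratio of transcripts, but length and library scaling cancel in the difference of 5.47 (standard error 0.15). Of 4 such ratios examined, each separated the genotypes completely, with an exact two-sided permutation p = 0.1 and an adjusted p = 0.1, the smallest that 3 against 3 libraries allow.

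**Figure D3:**
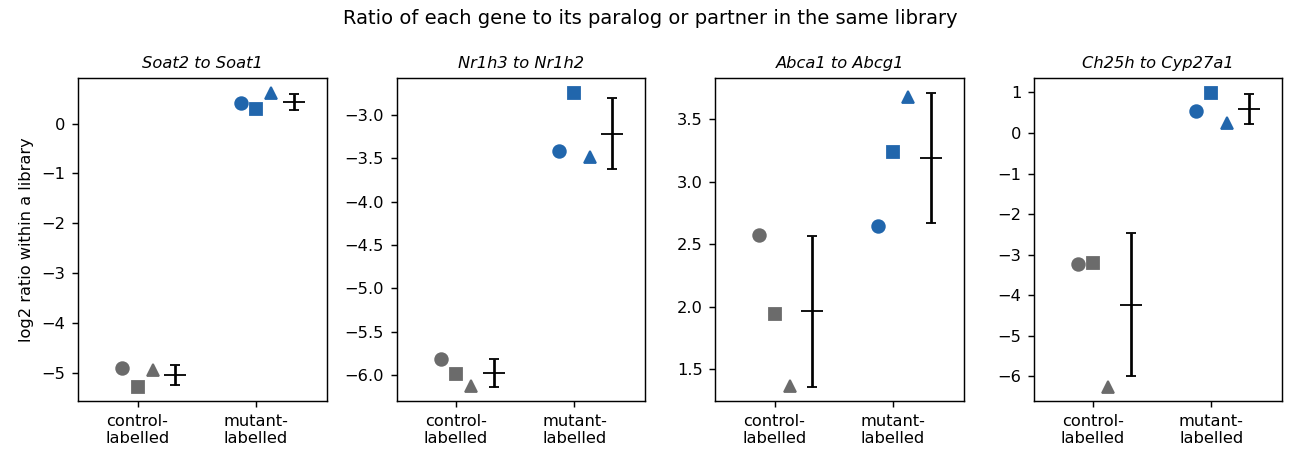
Log2 ratio of 2 genes within the same library (vertical axis) for *Soat2* to *Soat1*, *Nr1h3* to *Nr1h2*, *Abca1* to *Abcg1* and *Ch25h* to *Cyp27a1*. Gray is control-labelled and blue mutant-labelled, symbols are replicates 1 (circle), 2 (square) and 3 (triangle), and black bars are mean ± SD (n = 3). The 4 panels have separate scales, and in each the mutant-labelled ratios lie above the control-labelled ones, by 1.22 for *Abca1* to *Abcg1* and by 5.47 for *Soat2* to *Soat1*.

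Of the oxysterol hydroxylases, *Ch25h* was past the threshold and *Cyp27a1* was not. *Ch25h* (GSMG0020319, chromosome 19, 34473134 to 34475638, minus strand), which makes 25-hydroxycholesterol, was at 26.7, 20.8 and 2.53 in the control-labelled nerves and at 266, 276 and 185.9 in the mutant-labelled nerves. The controls rested on 24, 22 and 2 reads, and replicate 3 was far below the other two. The means differed by a ratio of 14.6, and on the log2 scale by 4.22 (standard error 0.74, adjusted p = 0.00301 by limma). With control-labelled replicate 3 left out the log2 fold change was 3.29, and with a pseudocount of 10 it was 3.37, both past the threshold.

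*Cyp27a1* (GSMG0000433, chromosome 1, 74713535 to 74737897, plus strand), the mitochondrial sterol 27-hydroxylase, had values of 259, 198 and 269 in control-labelled nerves and 183.3, 139 and 155 in mutant-labelled nerves. Each mutant-labelled value lay below each control, but the change did not reach 2-fold, with a log2 fold change of -0.60 (95% interval -1.14 to -0.06, adjusted p = 0.0829 by limma). The interval includes a 2-fold fall. The log2 ratio of *Ch25h* to *Cyp27a1* within a library was -4.23 ± 1.76 in control-labelled nerves and 0.59 ± 0.37 in mutant-labelled nerves, a difference of 4.82 (standard error 1.04), and most of the spread came from control-labelled replicate 3.

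Of the LXR genes, *Nr1h3* was past the threshold and *Nr1h2* was not. *Nr1h3* (GSMG0023168, chromosome 2, 91184061 to 91195116, minus strand), whose product LXRα is abundant in liver, fat and macrophages, had values of 125, 130.4 and 112 in control-labelled nerves and 577, 757 and 498 in mutant-labelled nerves. All mutant-labelled values were above the highest control, with replicate 2 the highest (log2 fold change 2.29, standard error 0.22, adjusted p = 0.000129 by limma). The 5 adipocyte markers summed to 25343 in mutant-labelled replicate 2 and to 3203 and 4336 in mutant-labelled replicates 1 and 3. In control-labelled libraries they summed to between 5253 and 12039. Without mutant-labelled replicate 2 the log2 fold change of *Nr1h3* was 2.12. The part of fat cells in the *Nr1h3* value was not tested. *Nr1h2* (GSMG0035869, chromosome 7, 44549616 to 44553965, minus strand), which encodes the widely expressed LXRβ, had values of 7097, 8331 and 7873 in control-labelled nerves and 6175, 5101 and 5596 in mutant-labelled nerves. It was lower in every mutant-labelled library without reaching 2-fold (log2 fold change -0.47, 95% interval -0.71 to -0.22, adjusted p = 0.00991 by limma). The log2 ratio of *Nr1h3* to *Nr1h2* was -5.98 ± 0.16 in control-labelled nerves and -3.22 ± 0.41 in mutant-labelled nerves, a difference of 2.76 (standard error 0.25).

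The efflux pumps were not alike. *Abca1* (GSMG0027811, chromosome 4, 53030788 to 53159896, minus strand), which loads cholesterol onto lipid-poor apolipoproteins, had values of 1583, 1098 and 735 in control-labelled nerves and 2191, 2185 and 3759 in mutant-labelled nerves. Both groups were spread, with the lowest value in control-labelled and the highest in mutant-labelled replicate 3, and they did not overlap. The log2 fold change was 1.27 (standard error 0.30, adjusted p = 0.0118 by limma), and it fell to 0.99, under the limit, without control-labelled replicate 3 and to 1.01 without mutant-labelled replicate 3. That mutant-labelled library also held the most skeletal muscle RNA, the 7 muscle markers summing to 322257 there and to 98679 and 43309 in mutant-labelled replicates 1 and 2, against 6556 to 33981 in control-labelled libraries. The part of muscle in the *Abca1* value was not tested.

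*Abcg1* (GSMG0016480, chromosome 17, 31057694 to 31117984, plus strand), which exports cholesterol to high-density lipoprotein particles, had values of 265, 284 and 284 in control-labelled nerves and 349.9, 231 and 293 in mutant-labelled nerves. The mutant-labelled values lay on both sides of the controls, with a log2 fold change of 0.05 (95% interval -0.44 to 0.53, adjusted p = 0.884 by limma). The interval leaves out a 2-fold change in either direction. The log2 ratio of *Abca1* to *Abcg1* was 1.96 ± 0.60 in control-labelled nerves and 3.19 ± 0.52 in mutant-labelled nerves.

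*Apoe* (GSMG0035595, chromosome 7, 19696109 to 19699188, minus strand), the lipoprotein component that glia and macrophages secrete, went the other way from *Abca1*. It had values of 40441, 36020 and 37687 in control-labelled nerves and 20606, 20446 and 13923 in mutant-labelled nerves, and mutant-labelled replicate 3 was the lowest. The log2 change was -1.08 (standard error 0.15, adjusted p = 0.000992 by limma), near the 2-fold limit. It was -0.89 without mutant-labelled replicate 3, -0.91 with equal library totals and -0.98 with the same 75th percentile, none of which passed. Rescaling to the same total moved the median of all tested genes to 0.20, and relative to the median, *Apoe* stood at -1.11 both before and after.

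*Abca1* and *Apoe* are both textbook LXR targets, and their upstream sequences are shown. Windows of 250 bases before to 50 after a transcript start were at hand for 7 of the 10 genes (RefSeq, GRCm38.p6, the build of mm10). The bases before the start are given 5′ to 3′ on the strand of the gene (minus for both), for *Abca1* chr4:53159896-53160145 and for *Apoe* the outermost of 3 starts, chr7:19699189-19699438. Capitals mark a match to a relaxed LXR element, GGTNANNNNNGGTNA, which is a pair of nuclear receptor half-sites spaced by 4 bases.
Abca1: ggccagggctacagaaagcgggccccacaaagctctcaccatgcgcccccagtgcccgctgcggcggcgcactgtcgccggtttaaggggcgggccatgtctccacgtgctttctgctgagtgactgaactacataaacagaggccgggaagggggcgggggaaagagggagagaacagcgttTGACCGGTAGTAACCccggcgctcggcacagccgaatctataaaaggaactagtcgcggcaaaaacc
Apoe: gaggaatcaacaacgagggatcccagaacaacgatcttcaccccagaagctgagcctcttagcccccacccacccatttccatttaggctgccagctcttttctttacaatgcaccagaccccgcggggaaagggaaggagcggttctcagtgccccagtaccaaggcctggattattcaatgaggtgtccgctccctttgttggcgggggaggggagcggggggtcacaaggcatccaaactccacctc

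The match in *Abca1* lies on the opposite strand from the gene, from base -67 to base -53 counted back from the start. Both strands of the windows were searched for this and 6 other motifs. The relaxed LXR element occurred in 0.718% of all 32851 windows and, among the 7 genes, in *Abca1*. The E-box CACGTG occurred in 7.15% of windows and, among the 7 genes, also in *Abca1*. No window of the 7 genes held the half-site AGGTCA (16.3% of all windows), the interferon response core GAAANNGAAA (3.44%), the STAT core TTCNNNGAA (8.3%), the sterol response core TCACNCCAC (1.24%) or the NF-kB core GGGNNTTTCC (1.63%). A match describes letters and not a bound site. Sequence outside these windows was not searched, and a link of matches to the changes of the genes was not tested.

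*Npc1* (GSMG0018721, chromosome 18, 12189694 to 12236386, minus strand), the membrane protein of lysosomal cholesterol exit, had the largest fall of the 10 genes. Its values were 13328, 14655 and 15020 in control-labelled nerves and 4833, 3923 and 3721 in mutant-labelled nerves. The groups were compact and far apart (14334 ± 891 and 4159 ± 592, SD, n = 3), and the log2 fold change was -1.79 (standard error 0.12, adjusted p = 1.97e-05 by limma). Leaving out single libraries gave values from -1.91 to -1.72. Its soluble partner *Npc2*, named here because it acts with NPC1, had values of 20742 ± 927 and 27777 ± 2510, a log2 fold change of 0.42 (adjusted p = 0.00954) that is under 2-fold, with every mutant-labelled value above the controls. *3110002H16Rik*, annotated opposite *Npc1* within its span, had 8.92 to 38.1% of the *Npc1* value and a log2 fold change of -0.17. The strand used in counting is not stated, so the reads of overlapping genes on opposite strands cannot be told apart, which also touches *Ch25h*, *Nr1h2* and *Apoe*.

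**Figure D4:**
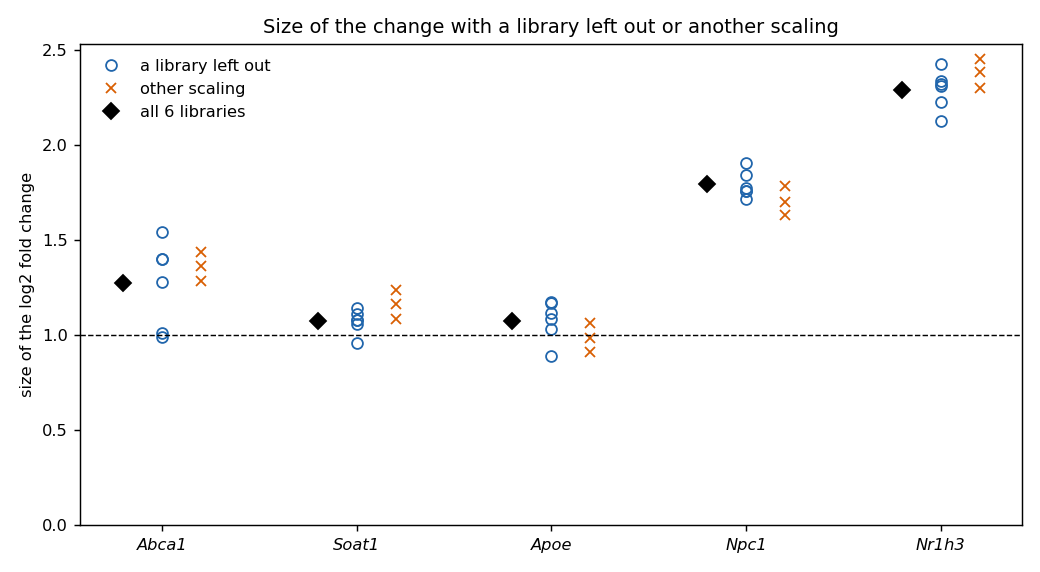
Size of the log2 fold change without its sign (vertical axis, starting at 0) of *Abca1*, *Soat1*, *Apoe*, *Npc1* and *Nr1h3* with all 6 libraries (black diamonds), without each library in turn (open blue circles) and under 3 other scalings of the libraries (orange crosses). The dashed line is the 2-fold limit. Values of *Abca1*, *Soat1* and *Apoe* reach under it, down to 0.99, 0.96 and 0.89, whereas *Npc1* and *Nr1h3* stay above it.

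Other genes of the pathway were taken from 6 lists. Counts past the threshold in each list stand beside 13.9% of all tested genes higher and 10.4% lower. Among 11 tested rows of LXR target genes, 1 was past the threshold and higher and 2 were lower, with a median log2 fold change of -0.10 beside 0.03 for all tested genes. *Fasn*, the fatty acid synthase, changed by -2.41 (12009 ± 1050.4 to 2292 ± 507, adjusted p = 1.88e-05 by limma) and *Scd1*, a desaturase, by -1.53. Both are also SREBP targets. A row shared by *Apoc2* and *Apoc4*, apolipoprotein genes downstream of *Apoe*, had a log2 fold change of 1.21 with an adjusted p of 0.0836. *Srebf1* had a log2 fold change of 0.09 (4918 ± 299 and 5265 ± 903, adjusted p = 0.64), and *Mylip*, the LXR-induced ligase that degrades the LDL receptor, one of 0.14. *Lpcat3* was at -0.49. None of these 3 genes was past the threshold.

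Among 10 partners and coregulators of LXR, 1 was higher and 1 lower past the threshold (all tested genes: 13.9% and 10.4%). Their median was 0.12. *Rxrg*, the retinoid X receptor γ gene, fell from 1030.0 ± 123 to 232 ± 49.0 (log2 fold change -2.16, adjusted p = 0.000122 by limma), while *Rxra* and *Rxrb* had log2 fold changes of -0.27 and -0.47. *Nrip1*, a corepressor that 3 other genes overlap on its strand, rose from 2152 ± 287 to 5458 ± 135 (1.35).

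Among 11 other efflux transporters and lipid acceptors, 2 were higher and 5 lower past the threshold (all tested genes: 13.9% and 10.4%). Their median was -0.86. The raised genes were lipid carriers: *Apod*, an apolipoprotein known to rise in injured nerve, went from 13090 ± 2193 to 114231 ± 8834 (log2 fold change 3.14, adjusted p = 2.93e-06 by limma), and *Clu*, the apolipoprotein J gene, from 362 ± 172 to 1708 ± 309 (2.32). The lowered genes were transporters and a receptor. *Abca2*, a lipid transporter of myelinating glia, changed by -2.84 and *Abca8a* by -2.05, and *Abca8b*, *Abcg4* and the high-density lipoprotein receptor gene *Scarb1* by -1.90, -1.85 and -1.46. On their own strand, *Abca8b* overlaps 1 other gene and *Scarb1* overlaps 2.

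Among 16 genes of lysosomal exit and sterol transfer, 1 was higher and 2 lower past the threshold (all tested genes: 13.9% and 10.4%). Their median was -0.09. *Osbpl1a*, an oxysterol-binding protein gene that 1 other gene overlaps on its strand, changed by -1.79 and *Stard4*, a sterol carrier that SREBP2 controls, by -1.27. The raised gene *Osbpl6* overlapped between genotypes (adjusted p = 0.08). Among 16 genes of ester hydrolysis and lipid droplets, 2 were higher and none lower past the threshold (all tested genes: 13.9% and 10.4%). Their median was 0.18. *Plin2*, which coats lipid droplets, rose from 2102 ± 213 to 6883 ± 118 (log2 fold change 1.72, adjusted p = 1.44e-05 by limma), and *Fitm1*, a droplet gene of skeletal muscle, from 68.2 ± 46.0 to 394 ± 384 (2.46, adjusted p = 0.0504), with its highest value in mutant-labelled replicate 3, where muscle markers also were highest. *Nceh1*, a hydrolase of cholesteryl esters, had a log2 fold change of -0.51 and was not past the threshold. The adipocyte genes *Plin1* and *Cidec* were high in mutant-labelled replicate 2, as was *Adipoq* (4955, against 16.7 and 13.8 in replicates 1 and 3). In control-labelled libraries *Adipoq* was at 1134, 7.56 and 362.

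Among 12 other oxysterol and bile acid genes, 8 were tested. None of these was higher and 4 were lower past the threshold (all tested genes: 13.9% and 10.4%). Their median was -0.96. *Cyp39a1*, a 7α-hydroxylase of oxysterols that 2 other genes overlap on its strand, fell from 5447 ± 452 to 1198 ± 72.8 (log2 fold change -2.18, adjusted p = 5.45e-06 by limma). *Gpr183*, the receptor for an oxysterol made from the CH25H product, changed by -1.59 (148 ± 34.0 to 47.7 ± 3.65), *Cyp46a1*, a 24-hydroxylase known from neurons, by -1.25 and *Fdxr* by -1.30. FDXR passes electrons through ferredoxin, encoded by *Fdx1*, to mitochondrial enzymes such as CYP27A1, and *Fdx1* had a log2 fold change of 0.74, in the other direction. *Cyp7b1*, which acts on the products of both hydroxylases described above, had one of -0.66 (adjusted p = 0.0015). Both *Fdx1* and *Cyp7b1* were under 2-fold and not past the threshold.

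**Figure D5:**
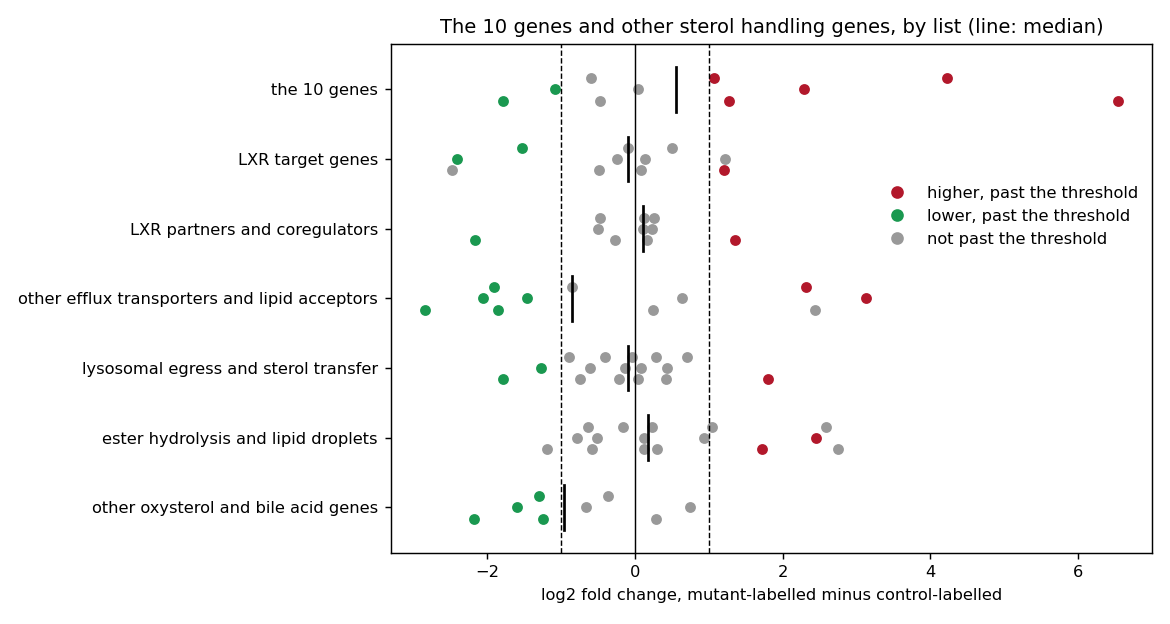
Log2 fold change, mutant-labelled minus control-labelled (horizontal axis), of the 10 genes and of the tested genes of 6 other lists, 1 point per row of the table, with a black line at each median and dashed lines at a 2-fold change. Red points are past the threshold and higher, green points past it and lower, and gray points not past it. The medians run from -0.96 for other oxysterol and bile acid genes to 0.56 for the 10 genes, and the efflux list holds red and green points.

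Several of the 10 genes are strongly expressed in macrophages, so markers of other cells are given beside them. Of all tested genes, 13.9% were past the threshold and higher and 10.4% past it and lower. Of 12 macrophage markers, 1 was higher and 5 lower past the threshold, none was at 0, and their sum ran from 22492 to 28672 in control-labelled nerves and from 21965 to 25692 in mutant-labelled nerves. Of 8 markers of monocytes, neutrophils and lymphocytes, 3 were higher (*Ptprc*, *Ly6c2* and *Nkg7*). The sum of all 8 ran from 442 to 531 in control-labelled and from 1207 to 1960 in mutant-labelled nerves, without overlap. *Ly6c2* and *Nkg7* were low in control-labelled libraries, with highest values of 26.7 and 5.07. Of the muscle markers 6 of 7 were higher, and all 5 erythroid markers were lower, with sums of 44257 to 62628 and of 4103 to 12694. None of 6 endothelial and none of 5 adipocyte markers was past the threshold, while 1 of 6 fibroblast or perineurial markers was lower and 1 of 5 tested liver or intestine markers higher. The adipocyte sums varied widely, from 5253 to 12039 in control-labelled and from 3203 to 25343 in mutant-labelled libraries. The part of these cells in the values of the 10 genes was not tested.

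By likeness of their log2 values, centred on the mean of the 6 libraries, the tested genes with a symbol closest to *Soat2* were *Gdnf*, *Hmx3* and *Trim30e-ps1*, with root mean square differences of 0.17, 0.19 and 0.31 over 6 libraries. The latter 2 had no reads in control-labelled libraries. Closest to *Ch25h* were *Scimp*, *Rasal1* and *Ptgs2* (0.32, 0.35 and 0.35). Among the closest to *Nr1h3* were *Oacyl* and *Veph1* (0.07 and 0.11). The genes were picked on the values of these 6 libraries, so shared high or low libraries follow from the choice.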

How the data were processed

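Sciatic nerves of 3 control and 3 mutant animals were profiled at P4. Per the labels and the study's methods, oriented poly-A cDNA was sequenced in paired ends, mapped to mm10 with STAR 2.4.0, and counted on the constitutive regions of FAST DB genes. The deposited signal is the read count divided by a DESeq2 size factor per library. It held whole multiples of a single read (value 0.727 to 1.27) for 100% of values within 0.01 of a read, so reads were recovered. Whether counting used strand is not given in the sources used here. No gene on the same strand overlaps any of the 10 genes, and 5 of them overlap a gene on the opposite strand.

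limma (lmFit, eBayes with trend) was run on log2(value + 1), mutant minus control, with Benjamini-Hochberg adjustment over 25802 genes. The pseudocount understates changes of low genes. With 3 animals per genotype, an exact permutation test reaches p = 0.1 at best. The 10 genes, the lists and the motifs were chosen with earlier results of these data known. Genes named from a list are those past the threshold without overlap, up to 4 by size of change, and others named were chosen after their values were seen. The fits were tested on simulated data. Alternatives were pseudocounts of 0.1 and 10, no filter or a minimum mean of 50, rescaling to the same total or 75th percentile or by TMM, no trend, an adjusted p, edgeR, DESeq2, a replicate block, and each library left out. R 4.3.3, limma 3.58.1, edgeR 4.0.16, DESeq2 1.42.0 and Python 3.11.15 were used. Some genes that the naming rule selects are not reported here. The labels tie no replicate number to a litter or batch.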

Additional observations from a re-analysis of the deposited data

How the results depend on the processing

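Of 180 log2 fold changes of the 10 genes under 12 other settings and 6 fits that each left out a library, 174 kept their direction and their side of the threshold, 5 lost the call and 1 reversed. The count of genes higher stayed at 5 under all 12 settings and ranged from 3 to 5 with a library left out, the lowest without control replicate 3, where *Abca1* (0.99) and *Soat1* (0.96) came under 2-fold. The count lower was 1 with equal library totals, 1 with the same 75th percentile, and 1 to 2 with a library left out, the lowest without mutant replicate 3. *Apoe* lost its call in each of these. With a library left out, *Abcg1* ran from -0.10 (without mutant replicate 1) to 0.20, and it was 0.21 with equal library totals. With a pseudocount of 10, the difference was 5.07 for *Soat2* to *Soat1* and 2.68 for *Nr1h3* to *Nr1h2*. It was 1.22 for *Abca1* to *Abcg1* and 3.94 for *Ch25h* to *Cyp27a1*. Without a library, *Soat2* to *Soat1* ran from 5.35 to 5.54 and *Nr1h3* to *Nr1h2* from 2.52 to 2.89. *Abca1* to *Abcg1* ran from 0.93 to 1.53, and *Ch25h* to *Cyp27a1* from 3.81 to 5.34. All genes past the threshold numbered 6251, and 5743 to 6334 without a library. edgeR placed 5805 and DESeq2 6026 there. With the replicate block, which the numbers do not warrant (correlations of same-numbered deviations of -0.06, -0.06 and 0.01), 5 higher and 2 lower genes remained and 6149 genes in all passed. Depth limits *Ch25h* most, with 2 reads in a control library.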

Other observations

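Nearest genes with a symbol beside the raised and lowered genes gave mixed values. *Igfbp6*, on the strand of *Soat2* and 1063 bases before it, had a log2 fold change of 0.44 (adjusted p = 0.0576 by limma), and *Csad* on the other side one of -0.68. Beside *Nr1h3*, *Madd* at 223 bases had a value of 0.86 and *Acp2* one of -0.28. None of these 4 genes was past the threshold. Beside *Ch25h*, the death receptor gene *Fas* rose by 2.91 at a distance of 145363 bases, while *Lipa*, which encodes the lysosomal hydrolase of cholesteryl esters and lies 16679 bases away, had a value of -0.89 (adjusted p = 0.000741), under 2-fold. Beside *Soat1*, *Abl2* rose by 1.27. *Nipsnap3b* beside *Abca1* (-0.05), *Apoc1* and *Tomm40* beside *Apoe* (1.23 and 0.25, adjusted p = 0.233 and 0.126), and *Riok3* and *Ankrd29* beside *Npc1* (0.81 and 0.20) were not past the threshold.

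Unnamed genes are annotated on the strand opposite *Apoe*, *Nr1h2* and *Npc1*. Their values were 1.79 to 2.87%, 3.40 to 4.03% and 0.54 to 0.92% of those of the 3 genes, and the log2 fold changes were -1.20, -0.49 and -1.99, beside -1.08, -0.47 and -1.79 for the genes themselves. Without a stated strand setting, reads of such pairs cannot be told apart. An unnamed gene over the 5′ part of *Ch25h* had values of 0, 21.7 and 19.0 in control-labelled and 10.2, 30.9 and 13.8 in mutant-labelled libraries, and was not past the threshold.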
